A study of Mus musculus with 9 samples.

Results

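A group of 9 genes of myoblast fusion was followed through differentiation of C2C12 cells, an established mouse myoblast line that fuses into multinucleated myotubes when serum is changed. They were taken by symbol from the 47729 Ensembl genes of the count table: the membrane fusogens Mymk and Mymx, the adhesion molecules Cdh15, Cdh2, Jam2 and Jam3, the ferlins Myof and Dysf, and the muscle caveolin Cav3. All 9 were found, and all 9 were among the 13324 genes with at least 1 CPM (read counts scaled to a common library size for depth and composition) in at least 3 libraries, which were the genes tested. The study compared 3 populations of C2C12 cells: WT, which received Cas9 with a guide RNA that has no target, and populations labelled Per1KO and Per2KO, in which the circadian repressor gene Per1 or Per2 was targeted with CRISPR-Cas9. Each was sampled undifferentiated in fetal bovine serum (day 0) and after 3 and 5 days of horse serum, with 1 poly(A) RNA-seq library per population and day and 9 libraries in all. The labels do not say whether a knockout is a clone or a mixed population, and they name whole muscle as the tissue although the growth protocol describes cell culture.

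Muscle fibres form when mononucleated myoblasts align, adhere through cadherins and immunoglobulin-type receptors, rearrange their cortical actin and merge their membranes. Mymk encodes myomaker, a membrane protein needed on both fusing cells, and Mymx encodes myomixer (also called minion or myomerger), a small membrane peptide that acts with myomaker to complete fusion; both are switched on with differentiation by the MyoD family of transcription factors, which bind E-boxes. Ferlins are calcium-sensing membrane proteins of vesicle fusion and membrane repair, and caveolin-3 forms the caveolae of muscle membrane.

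RefSeq promoter windows were examined for 4 of the 9 members (Cdh15, Myof, Dysf and Cav3). The windows of Cav3 and Myof are shown because, among these, Cav3 rose most during differentiation and Myof rose in neither day comparison; each runs over the 250 bases before the annotated start (GRCm38.p6), 5′ to 3′ on the gene's strand, with E-boxes (CANNTG, which reads the same on both strands) in capitals.
Cav3, chr6:112459255-112459504 (+): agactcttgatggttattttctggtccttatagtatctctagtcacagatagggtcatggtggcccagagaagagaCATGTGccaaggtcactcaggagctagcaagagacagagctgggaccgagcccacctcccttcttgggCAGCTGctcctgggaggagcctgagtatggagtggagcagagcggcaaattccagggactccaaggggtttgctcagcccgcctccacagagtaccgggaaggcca
Myof, chr19:38043578-38043827 (-): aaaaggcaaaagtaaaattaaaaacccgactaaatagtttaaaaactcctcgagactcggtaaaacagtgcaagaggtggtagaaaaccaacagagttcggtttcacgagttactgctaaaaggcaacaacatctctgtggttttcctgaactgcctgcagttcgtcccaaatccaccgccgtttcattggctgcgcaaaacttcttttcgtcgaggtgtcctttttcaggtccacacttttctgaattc
Cav3 has CATGTG at 174 to 169 bases and CAGCTG at 106 to 101 bases before its start. Myof has no CANNTG in this window. Neither of the Dysf windows has one, and Dysf was called higher on both days. The Cdh15 window has 3, and Cdh15 was called on neither day. Of 32851 RefSeq windows of the same length, 66.2% hold a CANNTG and 13% a CAGCTG, so a match is common, and it describes letters and not bound sites.

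In GENCODE M21 on mouse build GRCm38, the members are protein-coding genes spread over 8 chromosomes. Mymk lies on chromosome 2 at 27061636 to 27072179 (minus strand), Mymx on chromosome 17 at 45600971 to 45602102 (minus), Cdh15 on chromosome 8 at 122847966 to 122867397 (plus) and Cdh2 on chromosome 18 at 16588877 to 16809246 (minus). Jam2 lies on chromosome 16 at 84774123 to 84825928 (plus), Jam3 on chromosome 9 at 27097384 to 27155421 (minus) and Myof on chromosome 19 at 37899036 to 38043577 (minus). Dysf and Cav3 share chromosome 6, at 84008590 to 84211060 and at 112459505 to 112472872 (both plus). Jam3 shares 23.5% of its exonic 31-base words with an antisense gene, and whether the counting used strand is not given in the sources used here, so its values are uncertain. Dysf shares 5.03% of its words with antisense genes that held at most 8 counts in any library, and Cdh15 lies within the predicted readthrough gene Gm20388 of the same strand.

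The WT libraries held 5020385 to 6773320 counts and those of the knockouts 41997763 to 48051824, and the WT titles alone carry a lane suffix; against WT, genotype therefore cannot be told apart from depth or lane. A count of 0 allows 3 counts, or 0.423 to 0.659 CPM in WT and 0.0590 to 0.0730 CPM in the knockouts; these floors and all intervals below are 95% and cover counting error only. Per1 mRNA was 31.0 to 35.5 CPM in WT, 20.8 to 32.4 CPM in the libraries labelled Per1KO and 16.4 to 32.9 CPM in those labelled Per2KO, and did not pass the test in the libraries labelled Per1KO (log2 fold change -0.34 ± 0.22 SE, adjusted p = 0.310). Per2 mRNA was 9.73 to 20.4 CPM in WT, 6.58 to 10.6 CPM in Per1KO and 3.50 to 9.11 CPM in Per2KO, and was lower in Per2KO (-1.02 ± 0.24, adjusted p = 0.0230). Neither mRNA separates the 2 knockouts, and gene-level counts do not show the edited bases. Of the markers of myoblasts (Myod1, Myf5, Des, Pax7), 4 of 4 were present in every library. Summed fibroblast markers (Pdgfra, Dpt, Lum, Col15a1) were 25.7 to 184 CPM in WT and 7.80 to 15.8 CPM in the knockouts, with Lum at 0 in both knockout day 0 libraries. Endothelial markers summed to at most 0.432 CPM, adipocyte markers to at most 0.878 CPM and immune markers to at most 2.20 CPM, while the Schwann and neuron list (39.5 to 197 CPM) was nearly all Tubb3, with Sox10 at 0 in 8 of 9 libraries.

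Both fusogens were low at day 0 and high on days 3 and 5 in all 3 populations, and both were lower in the knockout libraries on every day. Mymk measured 94.8, 1285 and 1197 CPM in WT on days 0, 3 and 5. It measured 10.4, 618 and 1075 CPM in Per1KO and 6.01, 549 and 897 CPM in Per2KO. Thus the knockouts were 9.09-fold and 15.8-fold below WT at day 0, 2.08-fold and 2.34-fold below on day 3, and 1.11-fold and 1.33-fold below on day 5 (Per1KO first), and the gap narrowed at each later day. From day 3 to day 5 Mymk was 1.07-fold lower in WT, 1.74-fold higher in Per1KO and 1.63-fold higher in Per2KO.

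Mymx kept a wide gap at the end of the series. It measured 10.0, 225 and 159 CPM in WT, 0.263, 46.4 and 43.2 CPM in Per1KO, and 0.0393, 36.1 and 35.7 CPM in Per2KO on days 0, 3 and 5. At day 0 the WT library held 71 counts, the Per1KO library 13 and the Per2KO library 2, although the knockout libraries were sequenced at least 6.20 times as deeply. The day 0 ratio to WT was 38.0-fold lower in Per1KO (log2 -5.25, interval -6.23 to -4.38) and 255-fold lower in Per2KO (log2 -7.99, interval -11.07 to -6.09, from 2 counts). On day 3 Mymx was 4.85-fold and 6.24-fold below WT and on day 5 still 3.67-fold and 4.44-fold below, while Mymk had come within 1.33-fold. No knockout library reached a WT library of days 3 and 5 for Mymx.

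**Figure D1:**
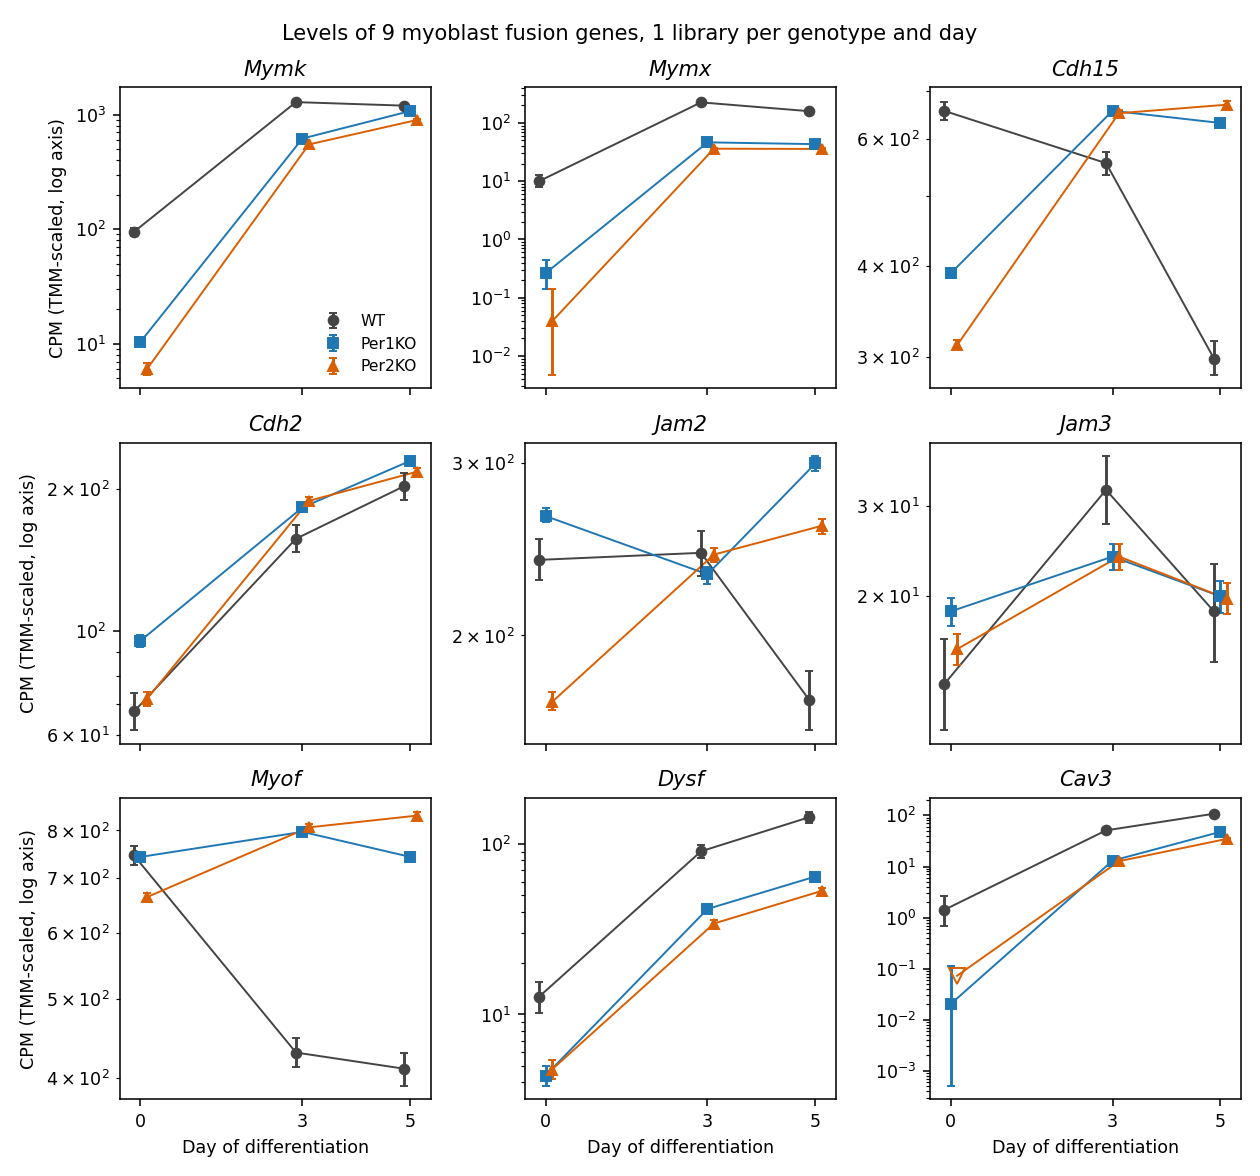
Level of each of the 9 genes in CPM (vertical log axes, which differ between panels) against day of differentiation, with 1 library per point and bars for the 95% counting interval. Mymk, Mymx, Dysf and Cav3 lie lower in both knockouts than in WT on every day, and Myof lies higher in both on days 3 and 5; the open triangle marks Cav3 in Per2KO at day 0, which had 0 counts and is drawn at the upper bound of its interval.

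The 2 cadherins moved in different ways. Cdh2, N-cadherin, a widely expressed adhesion molecule, measured 67.4, 157 and 203 CPM in WT, 95.3, 183 and 230 CPM in Per1KO and 71.7, 189 and 218 CPM in Per2KO, rising with day in each population. Cdh15, M-cadherin, which marks myoblasts and satellite cells, measured 657, 556 and 298 CPM in WT on days 0, 3 and 5. In the knockouts it went the other way, at 391, 657 and 632 CPM in Per1KO and 311, 652 and 670 CPM in Per2KO. Cdh15 was thus 1.68-fold and 2.11-fold lower than WT at day 0 and 2.12-fold and 2.25-fold higher on day 5.

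The junctional adhesion molecules Jam2 and Jam3 are immunoglobulin-type receptors that bind each other across cells. Jam2 measured 239, 243 and 172 CPM in WT, 265, 231 and 300 CPM in Per1KO and 171, 242 and 259 CPM in Per2KO. On day 5 the WT value was the lowest of the 3, with Jam2 1.74-fold higher in Per1KO and 1.50-fold higher in Per2KO. Jam3 measured 13.5, 32.2 and 18.7 CPM in WT, 18.7, 23.9 and 20.0 CPM in Per1KO and 15.8, 23.9 and 19.8 CPM in Per2KO. Day 3 was its highest day in each population.

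The ferlins split by genotype. Dysf encodes dysferlin, the repair ferlin whose loss causes a muscular dystrophy. It measured 12.7, 90.3 and 143 CPM in WT, 4.39, 41.5 and 64.3 CPM in Per1KO and 4.76, 34.1 and 53.0 CPM in Per2KO. The knockouts lay 2.18-fold to 2.89-fold below WT in all 6 same-day pairs, so the size of the gap was much the same on each day. Myof encodes myoferlin, the ferlin that is abundant in myoblasts before fusion. In WT it measured 746 CPM at day 0, 430 on day 3 and 411 on day 5, whereas it measured 743, 797 and 743 CPM in Per1KO and 664, 807 and 834 CPM in Per2KO. Myof was within 1.12-fold of WT at day 0 and 1.81-fold to 2.03-fold above it on days 3 and 5.

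Cav3 was almost absent at day 0. It had 10 counts (1.41 CPM) in the WT library, 1 count (0.0202 CPM) in Per1KO and 0 counts in Per2KO. On days 3 and 5 it measured 51.0 and 108 CPM in WT, 13.0 and 47.8 CPM in Per1KO and 12.7 and 34.8 CPM in Per2KO. The knockouts were 3.92-fold and 4.02-fold below WT on day 3 and 2.26-fold and 3.11-fold below on day 5. Set against the WT value as measured, the Per2KO floor of 3 counts at day 0 makes Cav3 at least 23.9-fold lower there, and the counting interval of both libraries reaches up to log2 -4.01. The Per1KO ratio was log2 -6.12 with an interval of -11.56 to -3.31 from its 1 count.

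In the test of each knockout against WT across the 3 days, the same 3 members were lower in both: Mymx, Dysf and Cav3. With both knockouts in 1 contrast, Mymk joined them, making 4 of 9 lower and 0 higher. The 4 called members were lower than WT in 6 of 6 same-day pairs, in which both knockouts of a day share its WT library. Mymx had a log2 fold change of -2.80 ± 0.68 (SE) in Per1KO (adjusted p = 0.0275) and -3.19 ± 0.69 in Per2KO (adjusted p = 0.0171). Dysf, the change with the smallest error among them, was at -1.25 ± 0.13 (adjusted p = 5.42e-04) and -1.41 ± 0.13 (adjusted p = 3.28e-04). Cav3 was at -1.79 ± 0.49 (adjusted p = 0.0410) and -2.06 ± 0.49 (adjusted p = 0.0249), fitted values that depend on how counts near 0 are handled. Mymk was at -1.65 ± 0.65 (adjusted p = 0.116) and -1.97 ± 0.66 (adjusted p = 0.0754) in the single knockouts and passed with both together (-1.81 ± 0.55, adjusted p = 0.0468). Both knockouts together gave -3.00 ± 0.56 for Mymx (adjusted p = 0.00747), -1.33 ± 0.11 for Dysf (adjusted p = 1.37e-04) and -1.93 ± 0.41 for Cav3 (adjusted p = 0.0129).

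The other members did not pass. Myof was at 0.56 ± 0.21 with both knockouts together (adjusted p = 0.0820), higher in 4 of 6 pairs, and without the day 0 libraries it was called (0.91 ± 0.11, adjusted p = 0.00449). Cdh2 was at 0.23 ± 0.11 (adjusted p = 0.154) and, though not called, was higher in 6 of 6 pairs. Jam2 was at 0.15 ± 0.18 (adjusted p = 0.576), Cdh15 at 0.07 ± 0.33 (adjusted p = 0.887) and Jam3 at -0.02 ± 0.16 (adjusted p = 0.935). The average over days hides the opposite day 0 and day 5 differences of Cdh15 given above.

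Against this, of all genes tested 9.26% were higher and 10.1% lower in Per1KO, 9.31% higher and 10.6% lower in Per2KO, and 12.2% higher and 14.1% lower with both together. The median log2 fold change of the 9 members with both knockouts was -0.02, beside -0.01 over all genes, so the members lower than WT formed a subset and not a shift of the whole list. These values come from edgeR's quasi-likelihood test with Benjamini-Hochberg adjustment over all genes, in which days stand in for replicates, so a p-value speaks of these libraries and not of separate cultures or clones. In bulk RNA, fewer differentiating cells and less RNA per cell cannot be told apart. The Mymx and Cav3 calls in the single knockouts were lost without the day 3 or the day 5 libraries (adjusted p = 0.0735 to 0.266) or without the filter on low counts (0.119 to 0.173), and with only the 2 genotypes compared Cav3 was lost in both and Mymx in Per2KO (0.0806 to 0.121). For both knockouts together, Mymk and Cav3 were lost in each of the first 3 settings (0.0502 to 0.242) and Mymx in 2 of them, without day 3 (0.0767) and without the filter (0.0796); without day 0 they stayed called, with Mymk at -0.75 ± 0.21 (adjusted p = 0.0478), Mymx at -2.26 and Cav3 at -1.70. Dysf passed in all of these. Fibroblast markers were also lower in the knockouts, in 3 of 3 tested (Pdgfra, Dpt and Col15a1, -1.25 to -4.57), and their part in the result was not tested.

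**Figure D2:**
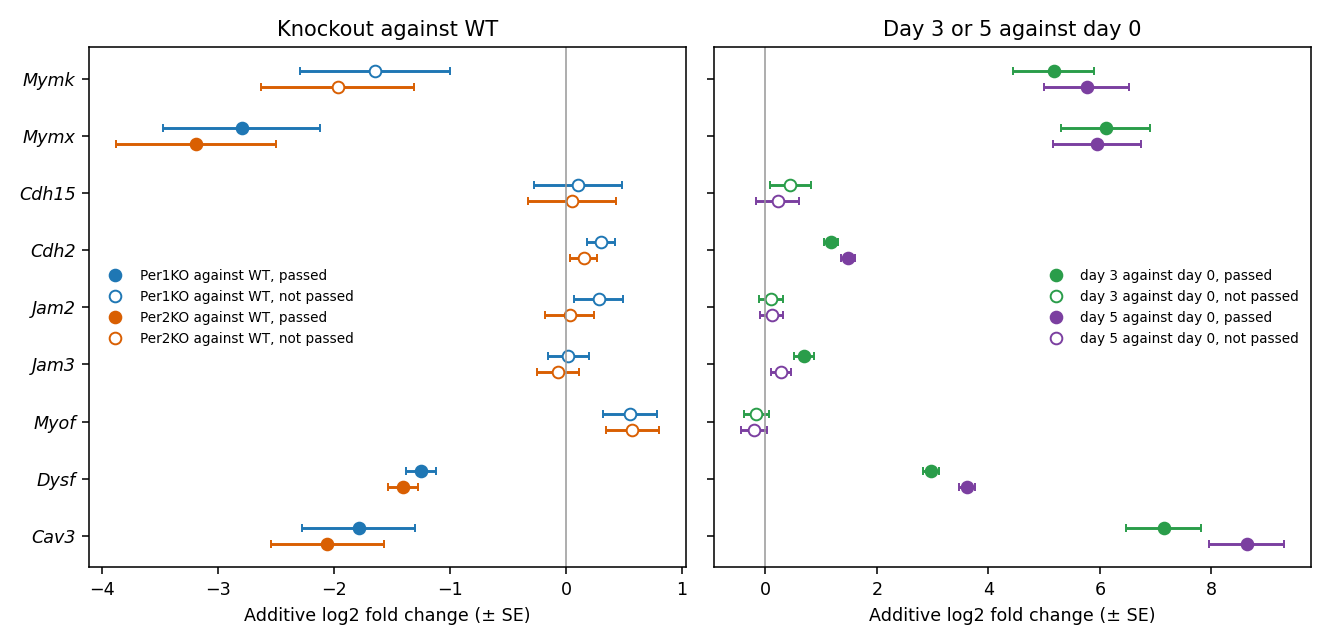
Log2 fold change ± SE of each gene from the additive fit of genotype and day, for knockout against WT (left) and day 3 or 5 against day 0 (right), with filled points for adjusted p under 0.05. Mymx, Dysf and Cav3 are filled on the left for both knockouts and all lie below 0, and Mymk, Mymx, Cdh2, Dysf and Cav3 are filled on the right for both days.

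Most of the members were higher during differentiation than before it. On day 3 against day 0, 6 of 9 were higher and 0 lower (Mymk, Mymx, Cdh2, Jam3, Dysf and Cav3), and on day 5 against day 0, 5 of 9 were higher and 0 lower, the same set but for Jam3. Of all genes, 18.1% were higher and 16.9% lower on day 3, and 23.2% higher and 22.9% lower on day 5, and the medians of the members were 1.18 and 1.48 beside -0.01 over all genes in both comparisons. Mymk rose by 5.17 ± 0.73 (adjusted p = 0.00182) and 5.76 ± 0.76 (adjusted p = 7.80e-04) on the log2 scale, and Mymx by 6.10 ± 0.79 (adjusted p = 0.00126) and 5.94 ± 0.79 (adjusted p = 8.29e-04). Dysf rose by 2.97 ± 0.14 (adjusted p = 3.59e-05) and 3.62 ± 0.14 (adjusted p = 7.50e-06), and Cdh2 by 1.18 ± 0.12 (adjusted p = 4.42e-04) and 1.48 ± 0.12 (adjusted p = 7.75e-05). Jam3 rose by 0.70 ± 0.18 on day 3 (adjusted p = 0.0184) and was at 0.28 ± 0.18 on day 5 (adjusted p = 0.233).

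Cav3 passed on both days (adjusted p = 3.25e-04 and 6.49e-05), and its size is best read from the counts. It was 36.2-fold higher on day 3 and 76.6-fold higher on day 5 in WT. In Per2KO, with 0 counts at day 0, the values as measured on days 3 and 5 were at least 215-fold and at least 590-fold above the floor of 3 counts, and the counting intervals of the log2 ratios start at 7.45 and 8.90. In Per1KO, with 1 count, the log2 ratios were 9.33 (interval 6.84 to 14.63) and 11.21 (interval 8.73 to 16.51). Cdh15 (0.45 ± 0.37 and 0.22 ± 0.38), Jam2 (0.10 ± 0.21 and 0.11 ± 0.21) and Myof (-0.16 ± 0.23 and -0.20 ± 0.23) did not pass on either day. Without the WT libraries Cdh15 was called higher on day 3 (0.90 ± 0.11, adjusted p = 9.56e-04) and on day 5 (0.89 ± 0.11, adjusted p = 7.34e-04). Without the Per1KO libraries the day 3 calls of Mymk, Mymx and Jam3 were lost (adjusted p = 0.0780, 0.0732 and 0.0797) and so was that of Mymx on day 5 (0.0524), and without Per2KO that of Jam3 (0.126).

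Between day 5 and day 3, Dysf was the 1 member of 9 called, and it was higher (0.64 ± 0.12, adjusted p = 0.0482), against 0.698% of all genes higher and 1.09% lower. Its rise was 1.58-fold in WT, 1.55-fold in Per1KO and 1.56-fold in Per2KO. Cav3 was at 1.50 ± 0.40 (adjusted p = 0.135) with ratios of 2.12-fold, 3.68-fold and 2.74-fold. Mymk was at 0.59 ± 0.60 (adjusted p = 0.716) and Mymx at -0.16 ± 0.58 (adjusted p = 0.943). The Dysf call was lost without the Per1KO libraries (0.65 ± 0.19, adjusted p = 0.540) or the Per2KO libraries (0.64 ± 0.20, adjusted p = 0.447).

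The fusogens started lower in the knockouts and rose there by larger folds, though to levels below WT. From day 0 to day 3, Mymk rose 13.6-fold in WT, 59.3-fold in Per1KO and 91.3-fold in Per2KO, and Mymx rose 22.5-fold, 176-fold and, from 2 counts, 918-fold (log2 9.84, interval 7.99 to 12.89). Dysf rose 7.12-fold, 9.44-fold and 7.17-fold, so the 3 populations differed little in it. Cdh2 rose 2.33-fold, 1.92-fold and 2.63-fold.

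A difference in the response (an interaction term that sets the change from day 0 to the later days in a knockout against that in WT) was called for 1 member, Mymx, with both knockouts together (4.29 ± 0.41 on the log2 scale, adjusted p = 0.0340), where 0.158% of all genes were called with a higher and 0.0225% with a lower response. Mymk was at 2.91 ± 0.51 (adjusted p = 0.104), Cdh15 at 1.52 ± 0.43 (adjusted p = 0.208), Myof at 1.00 ± 0.23 (adjusted p = 0.160), Cdh2 at -0.11 ± 0.30 (adjusted p = 0.902) and Dysf at 0.19 ± 0.54 (adjusted p = 0.904). In each knockout alone, 0 members and 0% of all genes were called by edgeR's quasi-likelihood test; at an unadjusted p under 0.05 there were 1426 genes for Per1KO and 1783 for Per2KO, and DESeq2 called 248 and 476. Mymx there was at 3.13 ± 0.43 in Per1KO (adjusted p = 0.134) and 5.44 ± 0.57 in Per2KO (adjusted p = 0.0649). WT has 1 day 0 library, on which each of these values rests, and it cannot be left out. The summed markers of differentiated muscle (Myog, Myh3, Ckm, Actc1, Acta1) were 551 CPM in that library and 7.59 to 18.7 CPM in the knockout day 0 libraries, and their part in the result was not tested.

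**Figure D3:**
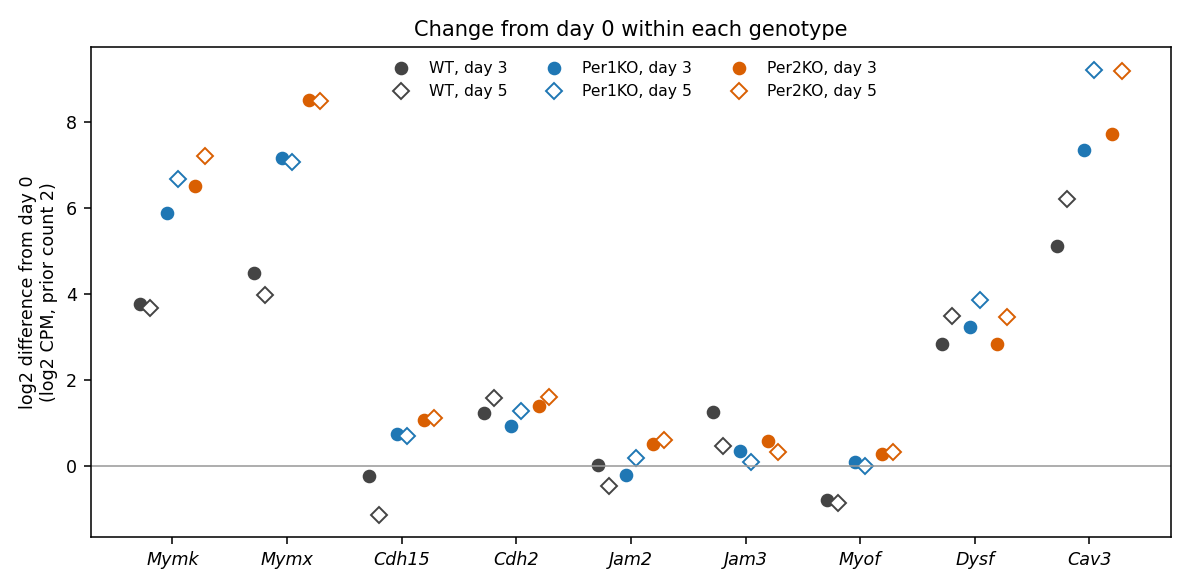
Difference of each gene from day 0 in the same population, in log2 CPM with a prior count of 2, for day 3 (filled circles) and day 5 (open diamonds), 1 library each. Mymk and Mymx lie higher in both knockouts than in WT, Dysf lies at similar heights in the 3 populations, and Cdh15 and Myof lie below 0 in WT and at or above 0 in the knockouts; Cav3 in the knockouts rests on 1 and 0 counts at day 0.

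Read day by day, with 1 library against 1 and no test, the members past 2-fold were nearly all lower in the knockouts. At day 0, 4 of 9 were at least 2-fold lower in Per1KO (Mymk, Mymx, Dysf and Cav3) against 8.65% of genes, and 5 in Per2KO (the same and Cdh15) against 9.32%, with 0 higher against 8.18% and 8.22%. On day 3 the same 4 were lower in each, against 9.26% and 10.0% of genes, and 0 were higher, against 8.58% and 8.88%. On day 5, 3 were lower in each (Mymx, Dysf and Cav3, against 11.5% of genes in both), and those higher were Cdh15 in Per1KO (against 9.13%) and Cdh15 and Myof in Per2KO (against 9.26%).

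No member was called between the libraries labelled Per1KO and Per2KO. By edgeR's quasi-likelihood test 0 of 9 members and 0% of all genes passed, with 88 genes at an unadjusted p under 0.05 and 1 gene called by DESeq2. The differences, Per1KO over Per2KO, were 0.32 ± 0.60 for Mymk, 0.39 ± 0.63 for Mymx, 0.27 ± 0.46 for Cav3 and 0.16 ± 0.12 for Dysf (adjusted p = 1.00 for each). The errors of the first 3 leave room for differences of 2-fold. Mymk was lower in Per2KO on all 3 days, by 1.73-fold, 1.13-fold and 1.20-fold, and so was Jam2 at day 0, by 1.55-fold. Mymx at day 0 was 6.70-fold lower in Per2KO, from 13 and 2 counts (log2 2.74, interval 0.60 to 5.93).

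Ratios of related members within a library do not depend on scaling between libraries. Per kilobase of exon, Cdh15 over Cdh2 was 24.2, 8.79 and 3.65 in WT on days 0, 3 and 5, a steep decline. It was 10.2, 8.93 and 6.82 in Per1KO and 10.8, 8.57 and 7.64 in Per2KO, so that the 3 populations met on day 3 and parted on day 5. Dysf over Myof rose from 0.0258 to 0.318 and 0.526 in WT. In Per1KO it rose from 0.00895 to 0.0788 and 0.131 and in Per2KO from 0.0108 to 0.0640 and 0.0962, so both knockouts stayed below WT on each day. Mymx over Mymk was 0.155, 0.258 and 0.195 in WT, 0.0371, 0.110 and 0.0591 in Per1KO and 0.00962 (from 2 counts), 0.0967 and 0.0585 in Per2KO: less Mymx per Mymk than in WT on every day. These ratios have no test.

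**Figure D4:**
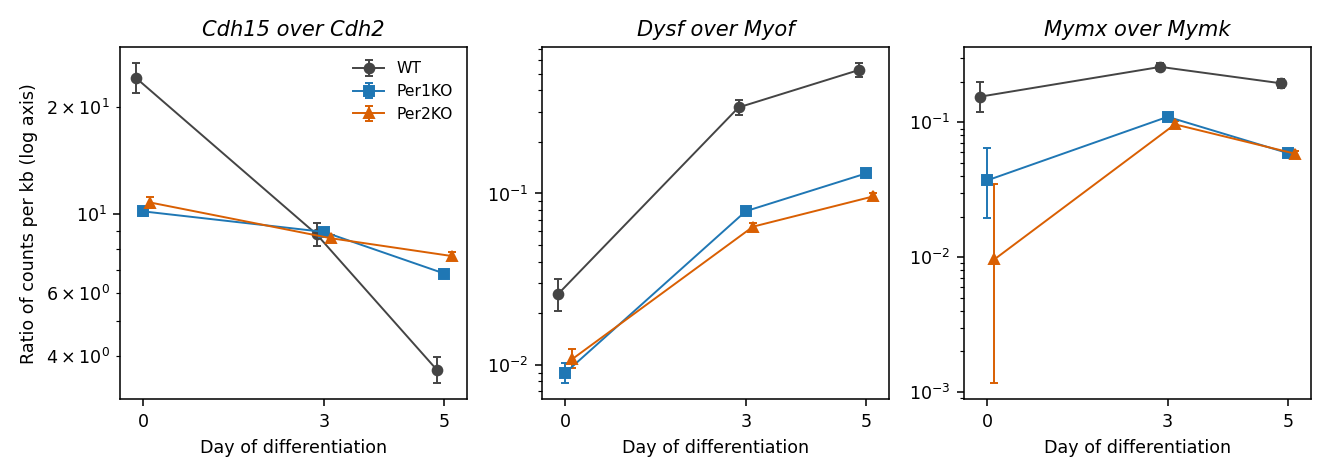
Ratio of counts per kilobase of exon for 3 pairs of members (vertical log axes) against day, 1 library per point, with 95% counting intervals. The Cdh15 over Cdh2 ratio falls from 24.2 to 3.65 in WT and from 10.2 and 10.8 to 6.82 and 7.64 in the knockouts, and the other 2 ratios lie lower in both knockouts than in WT on every day.

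Ordered by level per kilobase (CPM per kilobase of exon), the leading member changed from Cdh15 at day 0 to Mymk on days 3 and 5 in all 3 populations. At day 0 Cdh15 stood at 202 in WT, 120 in Per1KO and 95.8 in Per2KO. Next in WT came Mymk (62.7) and Myof (59.2), which did not differ beyond counting error, whereas in the knockouts Myof (59.0 and 52.7) and Jam2 (43.8 and 28.3) came next and Mymk was at 6.90 and 3.98. On day 3 Mymk stood at 851, 409 and 363 in WT, Per1KO and Per2KO. Mymx (219) and then Cdh15 (171) followed in WT, but Cdh15 (202 and 201) and Myof (63.2 and 64.0) in the knockouts, with Mymx at 45.2 and 35.1. On day 5 Mymk stood at 792, 712 and 593, and Cav3 had climbed to the third place in WT (93.4, not apart from Cdh15 at 91.8) and to the sixth in the knockouts (41.3, not apart from Mymx at 42.1 in Per1KO, and 30.1). Jam3 and Dysf held the last places on days 3 and 5, at 4.09 to 17.1, and were not apart from each other in WT on day 3 and in Per2KO on day 5.

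The fusogens and the muscle markers moved together across libraries. With both knockouts together, 3 of 3 activators of muscle transcription were lower than WT, against 14.1% of all genes: Myog (-2.99 ± 0.59, adjusted p = 0.00940), Myod1 (-0.60 ± 0.18, adjusted p = 0.0450) and Mef2c (-0.51 ± 0.12, adjusted p = 0.0192). In the single knockouts 1 of 3 was called lower in Per1KO and 2 of 3 in Per2KO, against 10.1% and 10.6% of all genes. Myog, the activator that rises at commitment, measured 124, 866 and 1059 CPM in WT, 5.35, 261 and 351 CPM in Per1KO and 2.91, 226 and 270 CPM in Per2KO. Of 9 differentiation markers, 9 were higher on day 5 than at day 0, against 23.2% of all genes. With both knockouts together 5 were lower and 0 higher than WT, against 14.1% and 12.2% of all genes. Alone, Per1KO had 1 lower and Per2KO 3, against 10.1% and 10.6% of all genes. The lowest was Actc1, an actin of early muscle (-3.47 ± 0.78, adjusted p = 0.0165). The 5 markers of differentiated muscle are not a separate set. Myog is among the activators above, and Myh3, Ckm, Actc1 and Acta1 are among the 9 differentiation markers. Of these 5, 3 were called lower with both knockouts together, against 14.1% of all genes. Alone, Per1KO had 2 lower and Per2KO 2, against 10.1% and 10.6%. Ckm was higher in the knockouts on day 5, at 276 CPM in WT, 434 CPM in Per1KO and 331 CPM in Per2KO. Summed, the 5 were 15955 to 16796 CPM in WT and 5473 to 9590 CPM in the knockouts on days 3 and 5. That sum contains neither fusogen, and each was set over it as a percent, a ratio chosen after the values were seen. Mymk was 17.2%, 8.05% and 7.12% in WT, 55.7%, 10.2% and 11.2% in Per1KO and 79.3%, 10.0% and 12.2% in Per2KO. Mymx was 1.82%, 1.41% and 0.944% in WT, 1.41%, 0.768% and 0.451% in Per1KO and 0.518%, 0.659% and 0.484% in Per2KO. Relative to these markers, Mymk was thus above its same-day WT value in each knockout library. Mymx was below its WT value on days 3 and 5. Its lower values at day 0 rest on 71 counts in WT, 13 in Per1KO and 2 in Per2KO, and no interval was computed for them. Over the same sum, Dysf was above WT in both knockouts at day 0 and on day 3 and below WT on day 5, and Cav3 was below WT on each day. The Dysf values on day 3 lay close, at 0.566% in WT, 0.686% in Per1KO and 0.623% in Per2KO. Those of Cav3 at day 0 rest on 10, 1 and 0 counts, and no interval was computed for any of these percentages.

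Other receptors of fusion were measured from a list of 17 genes, of which 14 were tested. With both knockouts together 6 were lower and 2 higher than WT, against 14.1% and 12.2% of all genes. The 2 higher include Nphs1, whose call is set aside below. Alone, Per1KO had 5 lower and 1 higher, against 10.1% and 9.26% of all genes. Per2KO alone had 5 lower and 2 higher, against 10.6% and 9.31%. The median was -0.02 beside -0.01 over all genes. The lowest was Adam12, a metalloprotease of fusing myoblasts (-3.02 ± 0.41, adjusted p = 0.00180), at 4.65, 39.9 and 56.9 CPM in WT and 1.20 to 4.84 CPM in the 6 knockout libraries, with the WT values of days 3 and 5 above all of them. The highest was Nphs1, nephrin (2.62 ± 0.42), which had 2 to 3 counts in each WT library and 77 to 215 in the knockouts. Nphs1 reached 1 CPM in knockout libraries only. It thus passed the filter on low counts through the group where it was higher, and its call is not read as a result. On day 5 against day 0, 6 were higher and 1 lower, against 23.2% and 22.9% of all genes. The largest rise was that of Ncam1, the neural cell adhesion molecule (2.44 ± 0.15, adjusted p = 2.34e-05). Nphs1 was the 1 lower (-0.96 ± 0.30), which is not read as a result either. The median was then 0.30, beside -0.01 over all genes, and both medians of this list include Nphs1.

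Of the genes of actin remodelling, 20 of 20 were tested. With both knockouts together 5 were higher and 1 lower than WT, against 12.2% and 14.1% of all genes, with a median of 0.14. Alone, Per1KO had 0 higher and 1 lower, against 9.26% and 10.1% of all genes. Per2KO alone had 2 higher and 1 lower, against 9.31% and 10.6%. The highest were Rac1, the GTPase that drives branched actin (0.38 ± 0.10, adjusted p = 0.0304), and Wipf1, a partner of N-WASP (0.38 ± 0.11, adjusted p = 0.0398), and the 1 lower was Wasf2, a subunit of the WAVE complex (-0.54 ± 0.13, adjusted p = 0.0187). On day 5 against day 0, 1 was higher (Trio, 0.47 ± 0.17, adjusted p = 0.0496) and 4 lower. Of all genes 23.2% were higher and 22.9% lower, so neither count exceeds the share over all genes. The lowest was Dock5, a Rac exchange factor (-1.30 ± 0.13, adjusted p = 1.66e-04). Dock5 measured 93.8, 34.4 and 42.4 CPM in WT and 71.5 to 74.9 at day 0 and 26.1 to 32.7 CPM later in the knockouts.

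Of 12 genes of membrane repair and caveolae, all tested, 0 were higher and 3 lower with both knockouts together, against 12.2% and 14.1% of all genes. Alone, Per1KO had 1 lower and Per2KO 3, against 10.1% and 10.6%. The lowest was Trim72, which encodes the repair protein MG53 (-1.90 ± 0.45, adjusted p = 0.0195), at 6.77, 206 and 305 CPM in WT, 0.486, 71.5 and 186 CPM in Per1KO and 0.295, 62.7 and 138 CPM in Per2KO. On day 5 against day 0, 4 were higher and 2 lower, against 23.2% and 22.9% of all genes. The largest rise was that of Trim72 (7.47 ± 0.66, adjusted p = 1.17e-04), and the lowest was Anxa2, a membrane-binding annexin (-1.11 ± 0.14, adjusted p = 5.07e-04). The response to differentiation was higher for 1, Ano5, a muscle anoctamin (2.38 ± 0.22, adjusted p = 0.0340), against 0.158% of all genes. Ano5 measured 90.5, 60.8 and 56.0 CPM in WT, 49.0, 110 and 129 CPM in Per1KO and 25.4, 113 and 123 CPM in Per2KO. Ano5 thus went down in WT and up in the knockouts, as Cdh15 did.

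Of 6 other cadherins, 3 were tested. Cdh1, Cdh11 and Cdh13 were all higher on day 5 (2.23 ± 0.22, 2.49 ± 0.32 and 2.58 ± 0.21), against 23.2% of all genes. Cdh11, a mesenchymal cadherin, was lower in the knockouts (-2.75 ± 0.26, adjusted p = 3.36e-04), at 72.8 to 212 CPM in WT and 4.72 to 59.4 CPM in the knockouts. Among JAM relatives, F11r, which encodes JAM-A, was higher (1.82 ± 0.31, adjusted p = 0.00240) and Cxadr, the coxsackievirus and adenovirus receptor, lower (-3.01 ± 0.49, adjusted p = 0.00201) on day 5, against 23.2% and 22.9% of all genes. Esam had at most 3 counts in any library. Fer1l5, the 1 of 4 other ferlins tested, was higher on day 5 (0.92 ± 0.23, adjusted p = 0.0132). Cav2 was lower on day 5 (-1.69 ± 0.30, adjusted p = 0.00277), against 22.9% of all genes and opposite to Cav3, and was not called in the knockouts (-0.10). Cav1 was called neither on day 5 (-0.80) nor in the knockouts (-0.55 ± 0.25, adjusted p = 0.149). It measured 186, 206 and 210 CPM in WT, Per1KO and Per2KO on day 3, and 247, 86.4 and 102 CPM on day 5.

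The genes whose log2 levels were most like each member over the 9 libraries, among 9208 protein-coding genes of at least 10 CPM on average, describe the same split, with no test and with genotype, day and depth shared by all points. For Mymk they were Acta1 and Tnni1 (Pearson r = 0.999 for both), for Mymx Actc1 (0.998) and Igf2 (0.996), for Dysf Trp63 and Bcl6 (0.998 for both) and for Cav3 Cacng1 (1.000) and Trim72 (0.998). For Cdh15 they were Anxa6 (0.978) and Olfml2b (0.972), for Cdh2 Ubxn4 (0.989) and Zfp869 (0.988) and for Myof Vegfb (0.984) and Magi3 (0.974). Jam2 was nearest to Dnajb4 (0.938) and Mto1 (0.906), and Jam3 to Wdr45b (0.947) and Yipf5 (0.930). Within the list, Mymk lay close to Mymx (0.98), Dysf (0.97) and Cav3 (0.99), and apart from Myof (-0.26).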

How the data were processed

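RNA was measured in 9 libraries of C2C12 cells (3 genotypes at 3 days, 1 library each). The values are the read counts per Ensembl gene that the authors deposited; per the submitters' processing notes, CASAVA 1.8, HISAT2 2.1.0 and mm10 were used, with roles not given, and the counting program and its use of strand are not given in the sources used here. All 9 value columns matched a sample title, and 0 lines named no gene. The members and gene lists were chosen with earlier results of these data known.

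Counts were scaled by TMM after the filter on low counts, which used CPM scaled by library total alone. Tests were run on the 13324 of 47729 genes that reached 1 CPM in 3 or more libraries, with edgeR 4.0.16 (robust quasi-likelihood; limma 3.58.1, R 4.3.3), and a gene was called at a Benjamini-Hochberg adjusted p-value under 0.05. Genotype and day entered an additive model with 4 residual degrees of freedom, and the response to differentiation an interaction model with 3. The script was tested on simulated data. Single-library differences used log2 CPM with a prior count of 2, ratios and levels exact Poisson or Clopper-Pearson 95% intervals, and past 2-fold a minimum of 1 CPM in either library. Named were all members, Per1 and Per2, the largest called rise and fall of each list, any gene of a list of at most 6, and the 2 genes most like each member by Pearson correlation. Alternatives were RLE scaling, no filter on low counts, DESeq2 1.42.0, other sets of libraries, other model terms and a prior count of 0.5.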

Additional observations from a re-analysis of the deposited data

Results flagged for a closer look

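Mymx was the 1 member whose rise from day 0 to days 3 and 5 differed between the knockouts and WT by a test of the difference (4.29 ± 0.41 on the log2 scale, adjusted p = 0.0340 by edgeR's quasi-likelihood test); the ratio of day 3 to day 0 was 22.5-fold in the WT libraries and 176-fold and 918-fold in the Per1KO and Per2KO libraries. The day 0 values behind it are 71, 13 and 2 counts. With both knockouts taken as 1 group, a fit chosen after seeing the data, the difference was 3.78 (adjusted p = 0.0254), and it lost its call without the Per1KO day 3 library (adjusted p = 0.0550) or the Per2KO day 0 (0.0575), day 3 (0.0516) or day 5 library (0.0614). WT day 0 is a single library and could not be left out.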

How the results depend on the processing

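No alternative reversed the direction of a called value. RLE scaling left the number of members called unchanged, and 26 combinations of a member and a same-day knockout and WT pair, and 36 of a member and a pair of days within a genotype, were past 2-fold under either scaling and either prior count. Of the 9 members, 3, 3 and 4 were called against WT (Per1KO, Per2KO, both). These became 1, 1 and 2 with no filter on low counts, 1 to 4, 1 to 4 and 1 to 5 when a day was left out, and 0, 0 and 0 with no day term, the 1 alternative in which Dysf lost its calls against WT; with only the libraries of the genotypes compared, Per2KO kept 1. The day 3 count of 6 became 3 to 7 and the day 5 against day 3 count of 1 became 0 to 3 when a genotype was left out, and the latter 2 with only the days compared. The response counts of 0, 0 and 1 became 2, 3 and 3 with no filter, 3, 4 and 5 with DESeq2, 2 (Per2KO) and 2 (both) with an added day 5 term, 3 with the knockouts as 1 group and 0 to 4 when a library was then left out. Over all genes, calls against WT (2575, 2652 and 3510) fell to 890, 807 and 1346 without day 3, 685, 753 and 1122 without day 5, and 797, 825 and 1155 with no day term; with only the genotypes compared they were 1362 and 1229. Day 3 calls (4664) were 2977 with only the days compared and 1091 to 7479 when a genotype was left out, day 5 calls (6149) as low as 2259, and day 5 against day 3 calls (238) were 370 with no filter, 733 with DESeq2, 573 with only the days compared and 0 to 1355 when a genotype was left out. Response calls (0, 0 and 24) were 315, 567 and 679 with no filter, 248, 476 and 585 with DESeq2, 56, 322 and 434 with the added term, and 343 with the knockouts as 1 group (95 to 980 when a library was left out). Fewer samples lower the residual degrees of freedom; otherwise the cause was not tested. For both knockouts against WT, using only the genotypes compared is the same fit. At day 0 the knockout values of Mymx and Cav3 rest on 13, 2, 1 and 0 counts.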
